A study of Mus musculus with 4 samples.

Results

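The miRNAs of the Hox clusters, miR-10, miR-196 and miR-615, were followed through 4 small RNA-seq libraries of mouse pluripotent cells. They are the 5 mature miRNAs mmu-miR-10a-5p, mmu-miR-10b-5p, mmu-miR-196a-5p, mmu-miR-196b-5p and mmu-miR-615-3p, taken by name out of 1907 listed, and all 5 were found. The set was chosen by name with the RPM levels of these same 4 libraries already known, so the values below are a description and no test is given for them. The cells were E14Tg2A, an embryonic stem (ES) cell line of strain 129/Ola grown on gelatin. ES cells were kept in serum with leukemia inhibitory factor (LIF), or for 3 to 5 passages in 2iL, which models the ground state and combines LIF with the MEK inhibitor PD0325901 and the GSK3 inhibitor CHIR99021 in N2/B27 medium free of serum. Epiblast-like aggregates (ELA), a model of primed cells, were collected after 2 days as floating aggregates in minimal medium without LIF, and are named after the medium of the ES cells they came from. Each of the 4 groups had 1 library from the pooled RNA of 3 sets of experiments of 1 cell line, so the spread between cultures was not measured. The description text of the labels exchanges ES 2iL and ELA serum, whereas titles, sources, characteristics and column names keep them as used here. Read by that text, each medium comparison below would be a stage comparison and the reverse. mmu-miR-302d-3p, of a cluster known to be higher in primed than in ground-state cells, measured 2451 RPM in the library titled ES serum, 16726 in ELA serum, 27.5 in ES 2iL and 2930 in ELA 2iL. By the titles it was higher in ELA from both media, and by the description text ELA serum (27.5) would lie below ES serum (2451).

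Hox genes encode the transcription factors that give cells their position along the head-to-tail axis, and they lie in 4 clusters in the order in which they are used along the body. The clusters also hold miRNA genes, some of them inside Hox genes. miR-196 is known for cleaving Hoxb8 mRNA through a nearly complete match, and miR-10 is conserved next to the Hox4 genes across animals. In undifferentiated ES cells the Hox clusters are known to be largely covered by Polycomb marks. A miRNA finds its targets mainly through its seed (bases 2 to 8 from the 5′ end), so the 5 mature sequences are shown with the seed in capitals (RefSeq, GRCm38.p6):
mmu-miR-10a-5p: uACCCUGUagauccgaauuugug
mmu-miR-10b-5p: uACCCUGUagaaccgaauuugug
mmu-miR-196a-5p: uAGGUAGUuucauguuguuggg
mmu-miR-196b-5p: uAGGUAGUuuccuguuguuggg
mmu-miR-615-3p: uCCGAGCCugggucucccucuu

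The members fell into 3 seed groups. miR-10a and miR-10b shared a seed and differed by 1 base of 23, U12A, with positions counted from 1 at the 5′ end and the miR-10a base first. miR-196a and miR-196b also shared a seed and differed by 1 base of 22, at the same position, A12C. Among the 1623 of 1907 listed miRNAs with a sequence in RefSeq, no other miRNA carried either seed, and none shared that of miR-615-3p. The number of mismatches allowed in mapping was not stated, so a read could have been given to the wrong paralog, most easily to the rarer member of each pair.

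All 6 annotated miRNA hairpins within the 39 Hox genes' 4 clusters belonged to these families (positions in mm9, GENCODE vM1). Mir196b lies on chromosome 6 (52180080 to 52180164, minus strand) in the Hoxa9 gene, where it is exonic in some transcripts and intronic in others. Mir196a-1 lies on chromosome 11 (96126478 to 96126579, plus strand) between Hoxb13 and Hoxb9, 6192 bp before the latter and in no annotated host gene. Mir10a lies further along the same cluster (96178479 to 96178588) within an annotated exon of Hoxb4. Mir196a-2 lies on chromosome 15 (102803772 to 102803881, plus strand) between Hoxc10 and Hoxc9, in an intron of the noncoding transcript Gm20398. Mir615 follows in the same cluster (102845341 to 102845432) in an intron of Hoxc5. Mir10b lies on chromosome 2 (74564127 to 74564194, plus strand) in introns of Hoxd4 and Hoxd3. The mature miR-196a-5p sequence matched mm9 at exactly 2 places, its 2 hairpins, so its reads cannot be given to the Hoxb or the Hoxc cluster. The other members matched at 1 place each.

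**Figure D1:**
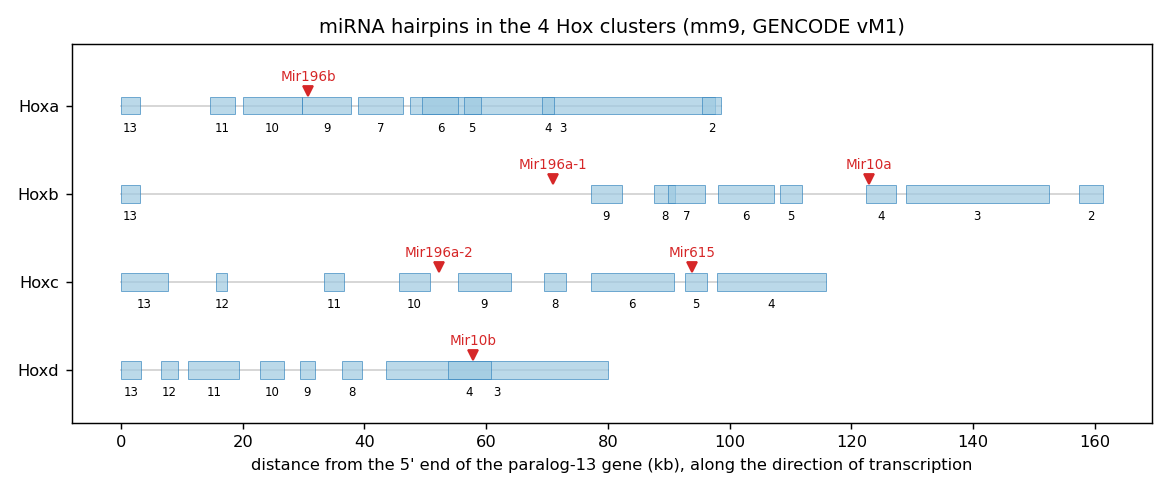
Positions of the 6 miRNA hairpins (red triangles) among the Hox genes (blue boxes, labelled with paralog numbers, drawn for paralogs 2 to 13) of the 4 clusters, as distance in kb from the 5′ end of the paralog-13 gene. Of the 3 miR-196 hairpins, Mir196b sits in a paralog-9 gene and the others next to one, and the 2 miR-10 hairpins sit in the genes of paralog 4.

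Levels are in RPM, normalised read counts scaled to the total of each library, from which the reads were recovered. The serum libraries held 8056984 reads (ES) and 4309257 reads (ELA), and the 2iL libraries 2767016 (ES) and 587363 (ELA). The limit of detection was set at 3 reads, which equals 0.372 RPM for ES serum, 0.696 for ELA serum, 1.08 for ES 2iL and 5.11 for ELA 2iL. Intervals in brackets are 95% intervals (Wilson for levels and shares, exact for ratios) and cover counting error only, as reads without molecular identifiers are not independent molecules. A table-wide fit took the 599 miRNAs that reached 10 reads in 2 or more libraries. limma on their log2(RPM + 1) values, with terms for stage and for medium, called 0 at an adjusted p of 0.05 for stage (125 at an unadjusted p under 0.05) and 0 for medium (176 unadjusted). edgeR on the recovered reads called 39 (6.51%) for stage and 64 (10.7%) for medium, and DESeq2 called 50 and 80. Of 6 ES or epiblast markers, 5 were detected in every library and mmu-miR-290a-3p was listed at 0. Their sum, which covers members that went opposite ways between stages, was 65441 (ES) and 65930 RPM (ELA) from serum, and 142256 (ES) and 113499 RPM (ELA) from 2iL. From serum, mmu-miR-295-3p, of the ES cell cluster miR-290, measured 49949 (ES) and 35327 RPM (ELA), whereas mmu-miR-302d-3p was the higher in ELA (above). In bulk RNA, fewer cells with a miRNA and less of it per cell cannot be told apart.

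Together the 5 miRNAs took a small part of each library. Their share of reads was 0.0978% for ES serum (0.0956 to 0.100%) and 0.0592% for ELA serum (0.0569 to 0.0615%). It was 0.265% for ES 2iL (0.259 to 0.272%) and 0.0964% for ELA 2iL (0.0887 to 0.105%). Their sum was thus highest in ES 2iL and lowest in ELA serum, and the intervals of ES serum and ELA 2iL overlapped. mmu-miR-10b-5p supplied most of these reads in each library, from 67.7% in ELA 2iL to 89.3% in ELA serum. The part of miR-196 (a and b together) was 2.84% in ES serum and 0.745% in ELA serum, but 14.7% in ES 2iL and 22.6% in ELA 2iL.

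mmu-miR-10b-5p, from the Hoxd cluster, measured 825 RPM in ES serum (806 to 846) and 528 in ELA serum (507 to 550). From 2iL, it measured 2163 RPM in ES cells (2109 to 2218) and 652 in ELA (590 to 721). ES 2iL stood above the other 3 libraries, which lay within 1.56-fold of each other, and no intervals overlapped. It was the 52nd most abundant miRNA of ES 2iL and ranked between 76 and 99 in the others.

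mmu-miR-10a-5p, from the Hoxb cluster, measured 122 RPM in ES serum (115 to 130) and 58.5 in ELA serum (51.7 to 66.2). The 2iL levels were 80.6 RPM for ES cells (70.7 to 91.9) and 93.6 for ELA (71.9 to 122, from 55 reads). ELA serum was the lowest library and ES serum the highest. The interval of ELA 2iL overlapped those of both ES libraries. Its order of levels therefore differed from that of its paralog, whose highest library was ES 2iL.

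mmu-miR-196a-5p, which the Hoxb and Hoxc clusters both encode, measured 24.2 RPM in ES serum (21.0 to 27.8) and 3.94 in ELA serum (2.46 to 6.32, from 17 reads). Its 2iL levels were 359 RPM for ES cells (337 to 382) and 191 for ELA (158 to 229). Both 2iL libraries were above both serum libraries, and all 4 levels were apart from each other by their intervals. Its rank went from 500th of 930 miRNAs with reads in ELA serum to 130th of 969 in ES 2iL.

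mmu-miR-196b-5p, from the Hoxa cluster, kept the same order at a lower level. It measured 3.60 RPM in ES serum (29 reads, 2.51 to 5.17) and 0.464 in ELA serum (2 reads, under the limit of detection). With 2iL it measured 32.5 RPM in ES cells (90 reads) and 27.2 in ELA (16 reads, 16.8 to 44.3). The intervals of the 2iL libraries overlapped each other and lay above both serum libraries.

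mmu-miR-615-3p, from the Hoxc cluster, was detected in the ES libraries alone. It had 18 reads in ES serum (2.23 RPM, 1.41 to 3.53) and 55 in ES 2iL (19.9 RPM, 15.3 to 25.9). ELA serum held 2 reads and ELA 2iL 0, which allows a level of up to 5.11 RPM in the latter, above the level of ES serum. miR-615-3p in ELA 2iL was thus not detectable at this depth, and a level like that of ES serum would have escaped detection.

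**Figure D2:**
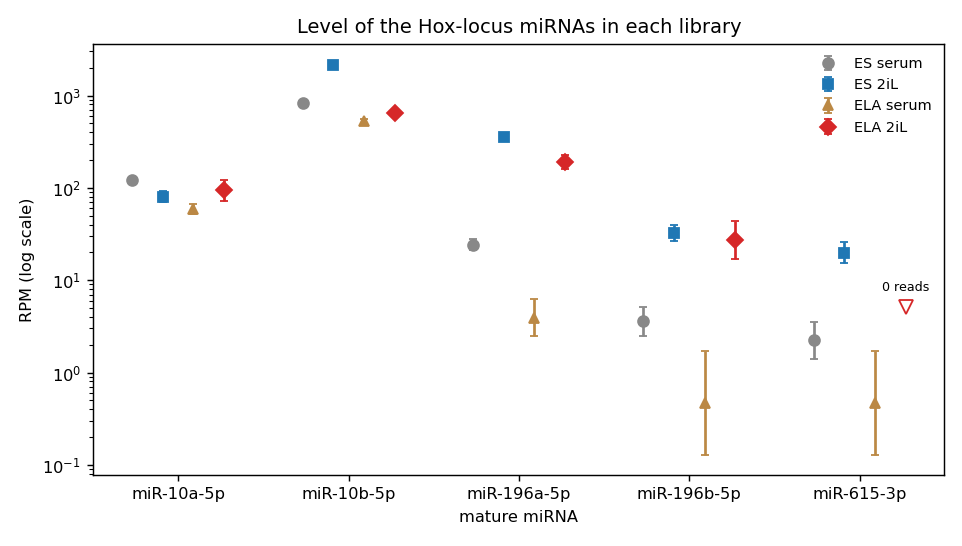
RPM (log scale) of the 5 mature miRNAs in the 4 libraries, 1 library per group, with Wilson 95% counting intervals. The open triangle marks 0 reads, drawn at the 3-read limit of ELA 2iL. The miR-196 levels of both 2iL libraries lie above those of the serum libraries, whereas mmu-miR-10a-5p stays between 58.5 and 122 RPM.

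The first comparison concerned the medium. Differences are given on the log2(RPM + 1) scale, which understates the change of low miRNAs, and folds are ratios of read shares. In ES cells, miR-196a was higher in 2iL by 3.83, a 14.8-fold difference (12.7 to 17.4). miR-196b was higher by 2.87 (9.04-fold, 5.89 to 14.2) and miR-615-3p by 2.69 (8.90-fold, 5.14 to 16.1). miR-10b was higher by 1.39 (2.62-fold, 2.53 to 2.71). miR-10a was lower, with a difference of −0.60 (1.52-fold, 1.31 to 1.76). Of the 310 miRNAs with a pair mean of at least 5 (31 RPM), 102 were higher in 2iL by at least 1 (32.9%) and 46 were lower (14.8%), or 47.7% in either direction. Of the 3 members that reached this mean, miR-196a and miR-10b were among the 102. miR-196a was under 5 in ES serum (4.66) and reached the mean through ES 2iL (8.49), where it is high. miR-10b fell short of 1 under TMM (0.90) and DESeq2 size factors (0.99), and miR-10a passed it as lower under TMM (−1.08). Differences of this size were thus common over the table, and the count of members is not a result about them. The split moved with scaling, from 68.9% higher among those past the limit under RPM to 44.1% under TMM and 48.4% under DESeq2 size factors. Relative to the median expressed miRNA, which was 0.50 higher in 2iL, the differences were 3.33 for miR-196a, 0.88 for miR-10b and −1.10 for miR-10a.

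In ELA, miR-196a was higher by 5.28 where the ES cells had been in 2iL, a 48.3-fold difference (28.9 to 85.9) that rests on 17 reads in ELA serum. miR-196b was higher by 4.27, from 2 reads to 16 (58.7-fold, 13.8 to 526). miR-10a was higher by 0.67 (1.60-fold, 1.17 to 2.15). miR-10b was higher by 0.30 (1.23-fold, 1.11 to 1.38) under RPM, but the difference was −0.05 under TMM and −0.18 under DESeq2 size factors, so its direction depended on the scaling. miR-615-3p had no more than 2 reads in either library and is given no difference. Of 302 miRNAs with a pair mean of at least 5, 63 were higher (20.9%) and 27 lower (8.94%), 29.8% in all. These were 70.0% higher of those past the limit against 43.7% under TMM and 29.1% under DESeq2 size factors. The 2 members with that mean, miR-10a and miR-10b, were not among either, and miR-196a, at 4.94, fell just short of the mean. Relative to the median, which was 0.35 higher, the differences were 4.93 for miR-196a, 0.32 for miR-10a and −0.04 for miR-10b.

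**Figure D3:**
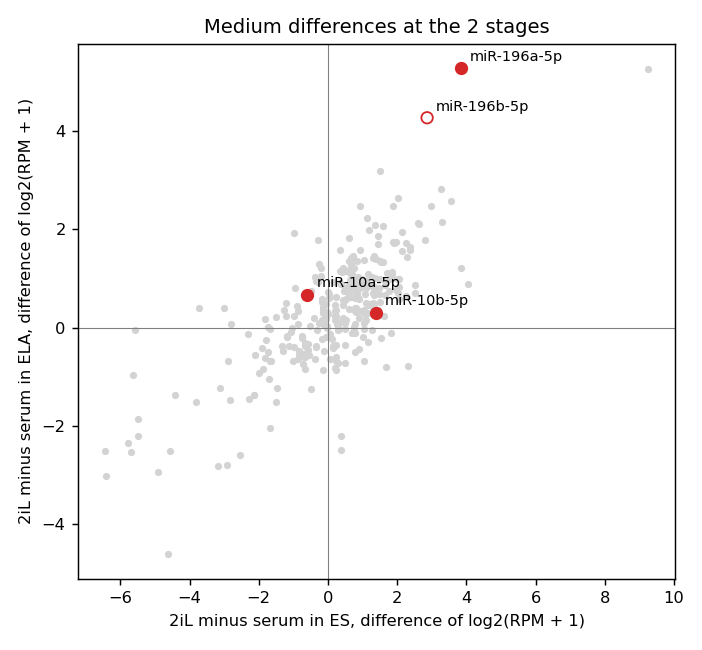
Difference 2iL minus serum in ES cells (x axis) against the same in ELA (y axis), on the log2(RPM + 1) scale, 1 library each. Grey points are the miRNAs with a mean of at least 5 over the 4 libraries, filled red points the members among them and the open red point mmu-miR-196b-5p. mmu-miR-196a-5p lies at 3.83 and 5.28, having reached that mean through the 2iL libraries, and mmu-miR-10a-5p on opposite sides of 0 at the 2 stages.

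The other comparison concerned the ES–ELA transition. From serum, the members were lower in ELA by differing amounts. miR-196a, miR-196b and miR-615-3p had a pair mean under 5, so the shares of all miRNAs given here do not cover them. The difference was −2.35 for miR-196a (6.14-fold, 3.73 to 10.7), −1.65 for miR-196b (7.76-fold, 1.96 to 67.1, from 29 reads to 2) and −1.14 for miR-615-3p (4.81-fold, 1.15 to 42.8, from 18 reads to 2). It was −1.05 for miR-10a (2.09-fold, 1.82 to 2.41) and −0.64 for miR-10b (1.56-fold, 1.49 to 1.64). Of 288 miRNAs with a pair mean of at least 5, 42 were lower by at least 1 (14.6%) and 24 higher (8.33%), 22.9% in all. These were 36.4% higher of those past the limit against 50.7% under DESeq2 size factors. 2 members reached the mean, of which miR-10a was among the 42 and miR-10b was not. miR-10a fell short of the limit under TMM (−0.95) and DESeq2 size factors (−0.86). Relative to the median, which was 0.08 higher in ELA, their differences were −1.13 and −0.72.

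From 2iL, miR-10b and miR-196a were lower in ELA, with differences of −1.73 (3.32-fold, 2.99 to 3.69) and −0.91 (1.88-fold, 1.55 to 2.31). miR-615-3p went from 55 reads to 0, at least 3.89-fold lower when set against the limit of 3 reads. The differences of miR-10a (0.21, with an interval of the log2 ratio from −0.24 to 0.65) and miR-196b (−0.25, from −1.12 to 0.52) were within counting error. Of 314 miRNAs with a pair mean of at least 5, 79 were lower (25.2%) and 48 higher (15.3%), 40.4% in all. These were 37.8% higher of those past the limit against 53.8% under TMM and 53.3% when the 5 most abundant miRNAs were left out of the totals. Of the 3 members with that mean, miR-10b was among the 79. Relative to the median, which was −0.30, the differences were −1.43 for miR-10b, −0.61 for miR-196a and 0.51 for miR-10a. Comparisons that share a library are not independent of each other.

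**Figure D4:**
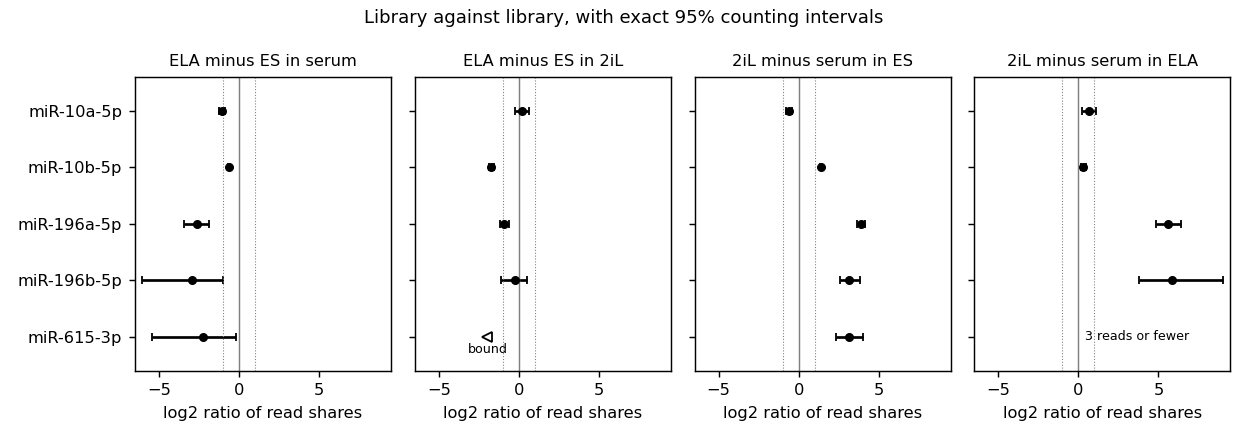
Log2 ratio of read shares for the 5 members in the 4 comparisons of 1 library with 1 library, with exact 95% counting intervals. Dotted lines mark a ratio of 1 in size, and the open arrow is the bound for mmu-miR-615-3p with 0 reads in ELA 2iL. miR-196a and miR-196b lie far to the right in both medium comparisons.

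Ratios between paralogs do not depend on the scaling of a library. miR-10a was 12.9% of the miR-10 reads in ES serum (12.2 to 13.7%) and 9.97% in ELA serum (8.86 to 11.2%). With 2iL the share was 3.59% for ES cells (3.16 to 4.08%) and 12.6% for ELA (9.78 to 16.0%). ES 2iL thus stood apart. The odds of miR-10a against miR-10b were 3.97-fold lower in ES 2iL than in ES serum (exact interval 3.42 to 4.64) and 3.85-fold higher in ELA 2iL than in ES 2iL (2.76 to 5.30). For the miR-196 pair, the b form was 12.9% of the reads for ES serum (29 of 224) and 10.5% for ELA serum (2 of 19, 2.94 to 31.4%). It was 8.32% for ES 2iL (6.82 to 10.1%) and 12.5% for ELA 2iL (7.84 to 19.3%). The 4 intervals overlapped, although the odds of the b form were 1.64-fold lower in ES 2iL than in ES serum (1.01 to 2.60). Between libraries the a form ranged from 3.94 to 359 RPM, and the share of the b form from 8.32 to 12.9%.

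The other arms of the hairpins were rare except for that of Mir196a-1, whose sequence belongs to the Hoxb copy alone:
mmu-miR-196a-1-3p: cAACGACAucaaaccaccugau
mmu-miR-196a-2-3p: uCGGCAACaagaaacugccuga
mmu-miR-196a-1-3p had 76 reads in each ES library, 9.43 RPM for serum and 27.5 for 2iL. ELA from serum had 6 (1.39 RPM) and ELA from 2iL 3 (5.11 RPM). It was higher in ES 2iL than in ES serum by 2.91-fold (2.09 to 4.06), against 14.8-fold for miR-196a-5p. As a share of the reads of both arms it was 76 of 271 in ES serum (23.0 to 33.7%) and 26.1% in ELA serum (12.5 to 46.5%), but 7.12% for ES cells with 2iL (5.72 to 8.82%) and 2.61% for ELA from them (0.891 to 7.39%). The odds of this arm against miR-196a-5p were 5.08-fold lower in ES 2iL than in ES serum (exact interval 3.51 to 7.35) and 12.8-fold lower in ELA 2iL than in ELA serum (2.46 to 86.3, from 3 and 6 reads). mmu-miR-196a-2-3p, the arm particular to the Hoxc copy, had 3 reads in ES 2iL and 0 in the other libraries. How the 5p reads divide between the 2 copies was not tested. mmu-miR-10a-3p and mmu-miR-196b-3p had 0 reads in all 4 libraries. Beside the 985 reads of mmu-miR-10a-5p in ES serum, 0 reads allow a share of up to 0.305%. mmu-miR-10b-3p had 5 reads in ES 2iL and 1 in ELA serum, and mmu-miR-615-5p had 1 in ES serum and 2 in ES 2iL.

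**Figure D5:**
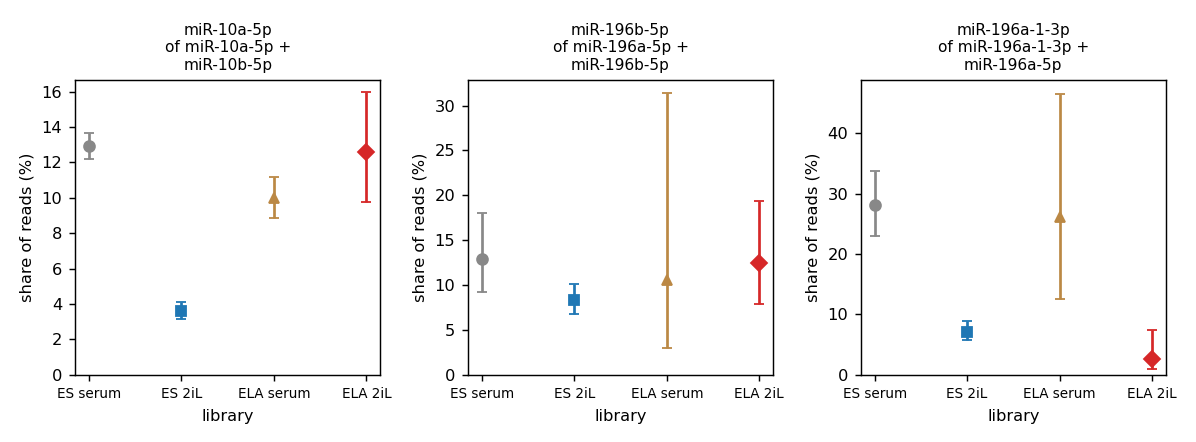
Share of reads (%) in each library with Wilson 95% intervals for miR-10a within miR-10 (left), miR-196b within miR-196 (middle) and the 3p arm of Mir196a-1 within the miR-196a reads (right). ES 2iL is low on the left at 3.59%, and both 2iL libraries are low on the right at 7.12 and 2.61%.

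Likeness of pattern was measured as the root mean square distance between log2(RPM + 1) values centred on each miRNA's own mean over the 4 libraries, against the 301 other miRNAs with a mean of at least 5 over these libraries. It is a description over 4 libraries. The nearest to miR-10b were mmu-miR-361-5p (distance 0.0979), mmu-miR-744-5p (0.135) and mmu-miR-423-3p (0.159), where the median distance was 0.825. mmu-miR-361-5p, for example, measured 303 (ES) and 222 RPM (ELA) from serum, and 825 (ES) and 283 RPM (ELA) from 2iL. The nearest to miR-10a were mmu-miR-7a-5p (0.156), mmu-miR-320-3p (0.175) and mmu-miR-128-1-5p (0.178). The distance is not scaled for range, so a miRNA that varies more tends to lie further from others. miR-196a ranged from 2.31 to 8.49 on this scale, against 5.89 to 6.95 for miR-10a and 9.05 to 11.1 for miR-10b. Among those 301, none came as close to miR-196a. Its nearest were mmu-let-7g-5p (0.928), mmu-let-7f-5p (0.990) and mmu-miR-291b-3p (1.08), with a median of 2.28. Its paralog mmu-miR-196b-5p was below that mean and so not among the 301, and its distance to miR-196a was smaller, at 0.599.

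The miR-196 seed is also found in let-7, the family that restrains pluripotency genes such as Lin28, but shifted by 1 base. The letters of the seed, in capitals, occupy bases 2 to 8 in miR-196a and 3 to 9 in let-7g and let-7f, and 8 of the 9 let-7 guide strands hold them:
mmu-miR-196a-5p: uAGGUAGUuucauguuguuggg
mmu-let-7g-5p: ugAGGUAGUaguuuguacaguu
mmu-let-7f-5p: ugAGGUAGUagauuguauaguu
let-7g measured 69.4 (ES) and 37.1 RPM (ELA) from serum, and 677 (ES) and 269 RPM (ELA) from 2iL. Of the 9 let-7 guide strands, 6 had a pair mean of at least 5 in ES cells. All 6 were higher in 2iL by at least 1, against 32.9% of the 310 miRNAs with that mean. Their median was 3.14, against a median of 0.50 over all expressed miRNAs. A pair mean of at least 5 can be reached through the 2iL library alone. mmu-let-7c-5p, which did not reach it, was lower with 2iL (19.2 RPM) than with serum (38.8 RPM). In ELA, 5 of 5 were higher by at least 1, against 20.9% of 302 miRNAs, with a median of 2.15 against 0.35. miR-10 has relatives of its own in miR-99 and miR-100, which share its middle but not its seed. The longest run in common, in capitals, is 11 bases in miR-100:
mmu-miR-10a-5p: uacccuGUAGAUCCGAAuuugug
mmu-miR-100-5p: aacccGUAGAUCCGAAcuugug
1 of the 3 relatives, mmu-miR-99b-5p, was expressed at a pair mean of at least 5, and it was opposite to miR-10b for medium in ES cells. By stage both were lower in ELA from either medium. miR-99b measured 34737 (ES) and 21828 RPM (ELA) from serum, against 4557 and 3146 RPM from 2iL, a medium difference of −2.93 in ES cells and −2.79 in ELA.

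To see which Hox mRNAs the members could pair with, each mature sequence was compared, without gaps, with the longest annotated 3′ UTR of each gene. For miR-196a-5p, the site of highest complementarity among 19768 UTRs was in Hoxb8 itself, whose gene lies in the cluster that holds Mir196a-1. It paired at 21 of 22 bases and was the only one at that level (mm9 chr11:96146202-96146223, plus strand; capitals pair with miR-196a-5p by Watson-Crick rules):
Hoxb8 site: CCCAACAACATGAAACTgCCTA
The exception was a G:U pair at base 5 of the miRNA. The same site was also the highest for miR-196b-5p, at 20 of 22. For miR-10a, miR-10b and miR-615-3p the highest site was in no Hox gene, and the highest Hox site paired at 14 of 23, 15 of 23 and 16 of 22 bases. The match to the miR-196 seed, ACTACCT on the mRNA strand, overlaps in its letters with that of let-7. It was present in the 3′ UTR of 9 of 39 Hox genes (23.1%), with 4 copies in Hoxa7 and 3 in Hoxc8, against 5.72% of 19915 genes. The match to the miR-10 seed, ACAGGGT, was present in 5.13% of Hox genes against 11.2% of all genes. The match to the miR-615-3p seed, GGCTCGG, was present in 1 Hox gene, Hoxb4 (2.56%, against 2.44% of all genes). Per kb of UTR, miR-196 matches numbered 0.321 in Hox genes and 0.0474 over all genes, and the median UTR was 1117 and 893 bases long. Hox mRNA levels were not analysed here, and a match is not a shown site.

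Hox-cluster miRNAs are used by many cells outside the early embryo, so markers of other cell types are given beside them. The fibroblast or mesenchyme list (5 miRNAs, 4 detected in each library) summed to 3162 (ES) and 1475 RPM (ELA) from serum, and to 4847 (ES) and 1985 RPM (ELA) from 2iL, the same order of libraries as miR-10b. Nearly all of it was mmu-miR-143-3p, the 1 detected member of 4 that kept this order. mmu-miR-145a-5p and mmu-miR-199a-3p had the order of miR-196a, mmu-miR-199a-5p had neither, and mmu-miR-214-3p had at most 3 reads. The blood list (5 miRNAs, 1 to 3 detected) summed to 594 (ES) and 551 RPM (ELA) from serum, and to 1612 (ES) and 2007 RPM (ELA) from 2iL, higher in 2iL as miR-196 was. It consisted mostly of mmu-miR-142a-5p, while mmu-miR-142a-3p had 0 reads in each library. The neural list (4 miRNAs, 3 detected) summed to 649 (ES) and 471 RPM (ELA) from serum, and to 869 (ES) and 547 RPM (ELA) from 2iL. This sum was again in the order of miR-10b, but none of its 3 detected members kept that order. mmu-miR-128-3p had the order of miR-196a, mmu-miR-124-3p and mmu-miR-9-5p had neither, and mmu-miR-219a-5p had 0 reads. The muscle list (3 miRNAs) ran from 0 RPM in ES 2iL to 73.2 in ELA 2iL, and the endothelial and liver markers, mmu-miR-126a-3p and mmu-miR-122-5p, had 0 reads throughout. The part of other cells in the levels above was not tested.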

How the data were processed

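Small RNA was sequenced from 4 libraries of pooled RNA, 1 for each stage and medium. The authors demultiplexed with CASAVA 1.8, trimmed adaptors with Trimmomatic, mapped to mm9 with Bowtie, counted with featureCounts on miRBase release 20, and the deposited unit is RPM. Mismatches allowed and the handling of multi-mapped reads were not given in the sources used here. RPM is a share of miRNA reads, not an amount per cell. All sample columns were used (0 left out).

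The smallest value of each column was taken as 1 read. 100% of values above 0 were then whole (tolerance 0.01), which gave depths of 587363 to 8056984 reads. Differences used log2(RPM + 1). Past the limit means at least 1 in size, in either direction, with a mean of at least 5. The study stated these values for the miRNAs lower in ELA than in ES cells, and here they were applied to every comparison. limma 3.58.1 was run on the RPM values with stage and medium as terms (1 residual degree of freedom, two-sided, Benjamini-Hochberg), and edgeR 4.0.16 and DESeq2 1.42.0 on the reads.

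The members and lists were chosen with earlier results of these data known. Named miRNAs are the 5 members, the 6 other arms, the 3 nearest patterns of each member with a mean of at least 5, and listed relatives and markers. Which Hox genes hold a miR-10 seed match is not reported here. Sequences come from RefSeq, and positions from exact matches in the mm9 genome. Alternatives were 3 other scalings, pseudocounts of 0.5 and 5 RPM, no filter, summed paralogs and a mean of at least 3.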

Additional observations from a re-analysis of the deposited data

Results flagged for a closer look

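mmu-miR-10a-5p went opposite ways in the 2 media at the ES–ELA transition. It was lower in ELA from serum (−1.05 on the log2 scale) and higher in ELA from 2iL (0.21), a difference of 1.27. Seen from the medium, the same 4 values gave −0.60 in ES cells and 0.67 in ELA, again 1.27 apart. The change in 2iL was within counting error, and the difference between the media was not tested, since every value here rests on a single library.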

How the results depend on the processing

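No pairing of replicate cultures was possible because each group has 1 library and the labels carry no replicate numbers. The medium term of the limma fit does set each stage difference within its medium. Leaving out a library leaves limma no residual degrees of freedom. Of 132 values of single members under the alternatives, 128 kept their direction. The 4 that reversed were miR-10b for medium in ELA (−0.045 under TMM, −0.18 under DESeq2 size factors) and miR-10a when summed with miR-10b (−1.59 for ELA minus ES in 2iL and 1.24 for 2iL minus serum in ES), where the sum is mostly miR-10b. The next counts of members that differed by at least 1 were taken at any mean, with no share over all miRNAs beside them. They show the effect of processing and are not results about the members. With a pseudocount of 5 RPM, 2 members in place of 4 differed by at least 1 for ELA minus ES in serum. The pseudocount exceeds the levels of the rarer ones, and miR-196b and miR-615-3p had 2 reads each in ELA serum. That count was 3 under TMM, DESeq2 size factors and summed paralogs, and for 2iL minus serum in ES it went from 4 to 3 under DESeq2 size factors and to 5 with summed paralogs. For ELA minus ES in 2iL it went from 2 to 3 with summed paralogs, and it was 2 in each alternative for 2iL minus serum in ELA. miRNAs called for stage, 0 under the chosen settings, numbered 45 under TMM, 84 under DESeq2 size factors, 89 when the 5 most abundant miRNAs were left out of the totals, 9 with a pseudocount of 5, 99 without a filter, 39 with edgeR and 50 with DESeq2. For medium the counts were 74, 112, 109, 38, 130, 64 and 80 in that order, and the cause was not tested. With a mean of at least 3, 159 of 479 miRNAs (33.2%) were higher in 2iL in ES cells, 4 of the 5 members among them. Of these 4, miR-196b and miR-615-3p were low in ES serum (2.20 and 1.69) and reached the mean through ES 2iL (5.07 and 4.38). The count is therefore not a result about the members. In ELA, 103 of 457 (22.5%) were higher in 2iL, 1 of 3 members among them. By stage, 74 of 450 (16.4%) were lower in ELA from serum, 2 of 3 members among them. From 2iL, 131 of 477 (27.5%) were lower, 1 of 4 members among them. The other arms of all 6 hairpins took 0.968% (ES) and 0.274% (ELA) of these hairpins' own reads from serum, and 1.16% and 0.527% from 2iL. Without miR-196a these shares were 0.0130, 0.0395, 0.110 and 0%. The comparison of read shares with no pseudocount was added after the data had been examined and kept each direction. The 587363 reads of ELA 2iL limit what can be said of miR-615-3p and miR-196b.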
